A study of Homo sapiens with 6 samples.

Results

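Long noncoding RNAs are transcripts without a long reading frame that act as RNA, often by gathering proteins. The 8 described here are MALAT1, NEAT1, KCNQ1OT1, NORAD, MIAT, PVT1, OIP5-AS1 and CYTOR. They were chosen by name, as the rows of the count table whose NCBI symbol is one of these, which gave 8 rows of 28307. RNA was sequenced from OCI-AML3, an established human acute myeloid leukaemia line known for carrying an NPM1 mutation that moves the nucleolar protein nucleophosmin to the cytoplasm (NPM1c). Cells received a control siRNA (siControl, 3 libraries) or an siRNA against NPM1c (siNPM1c, 3 libraries), each by lipid transfection at 10 nM, and total RNA was taken after 3 days. All 6 libraries carry the same batch label and the genotype label WT, and both groups are the same single line, so the comparison concerns 1 leukaemia.

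NEAT1 and MALAT1 are nuclear RNAs transcribed from neighbouring genes: NEAT1 is the scaffold of paraspeckles, and MALAT1 collects in nuclear speckles, where splicing factors are stored. KCNQ1OT1 is the antisense transcript of the imprinted KCNQ1 domain and silences genes there from the paternal chromosome, and MIAT is a nuclear RNA that binds splicing factors. NORAD is a cytoplasmic RNA that holds Pumilio proteins, which otherwise shorten the life of their target mRNAs. OIP5-AS1 (cyrano) carries a nearly perfect site for the microRNA miR-7, PVT1 is the noncoding neighbour of MYC, and CYTOR is a mostly cytoplasmic RNA often raised in tumours.

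The libraries held 15075235 to 25190122 counts. Ribosomal RNA genes took 63.0% to 64.5% of the counts in siControl and 69.4% to 71.1% in siNPM1c, and 7SL genes, for the RNA part of the particle that brings nascent secreted proteins to the membrane, took 4.06% to 4.53% and 4.82% to 5.33%. Neither range overlapped between the groups. All lncRNA and antisense RNA genes together took 0.524% to 0.539% of all counts in siControl and 0.417% to 0.433% in siNPM1c. Of the counts outside rRNA and 7SL they took 1.66% to 1.67% and 1.72% to 1.73%, so the order of the groups depended on the denominator. Counts of NPM1, which do not separate the mutant from the normal allele, were 922, 1366 and 922 in siControl and 293, 500 and 350 in siNPM1c (log2 fold change -1.10 ± 0.05 SE). Of 10 myeloid blast markers 9 passed the filter on low counts. The exception was KIT, at 0 to 2 counts. The CPM of markers have library sizes alone as their scale, not TMM, the scale of the CPM below. On that scale the summed level of the 10 was 445 to 458 CPM in siControl and 460 to 491 CPM in siNPM1c. The median log2 fold change of all genes was -0.48 there, so these sums do not show equal levels under TMM. The T-cell marker CD3D and the erythroid marker HBB had 0 counts in all libraries. The summed T-cell, B-cell, erythroid, epithelial and fibroblast markers each stayed between 0 and 2.06 CPM, also with library sizes alone.

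NORAD, NEAT1 and OIP5-AS1 were higher in siNPM1c, and KCNQ1OT1 was lower. NORAD changed most, 1.38-fold, and the other 3 moved by 1.13-fold to 1.16-fold. MALAT1, MIAT, PVT1 and CYTOR did not pass the test. Levels here and below are in CPM, counts scaled to a common library size by TMM, which sets the typical gene to no change. Directions are siNPM1c minus siControl. A gene was called at a Benjamini-Hochberg adjusted p under 0.05 over 12938 genes in the quasi-likelihood test of edgeR. All 8 RNAs passed the filter on low counts, and 4 were called, 3 higher and 1 lower. In the same test 42.7% of all genes were called, 21.3% higher and 21.4% lower, so 4 of 8 was near the background. The groups' CPM did not overlap for 6 of the 8 (NEAT1, NORAD, MIAT, PVT1 and OIP5-AS1 higher, KCNQ1OT1 lower), against 49.2% of all genes. As shares of the counts outside rRNA and 7SL, however, MIAT, PVT1 and OIP5-AS1 overlapped between the groups. The median log2 fold change of the 8 was 0.17, and that of all genes was -0.01. With library sizes alone as the scale, the median of all genes fell to -0.48 and that of the 8 to -0.30, and none of the RNAs had a value above 0. In such bulk samples, fewer cells with an RNA and less of it per cell cannot be told apart.

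**Figure D1:**
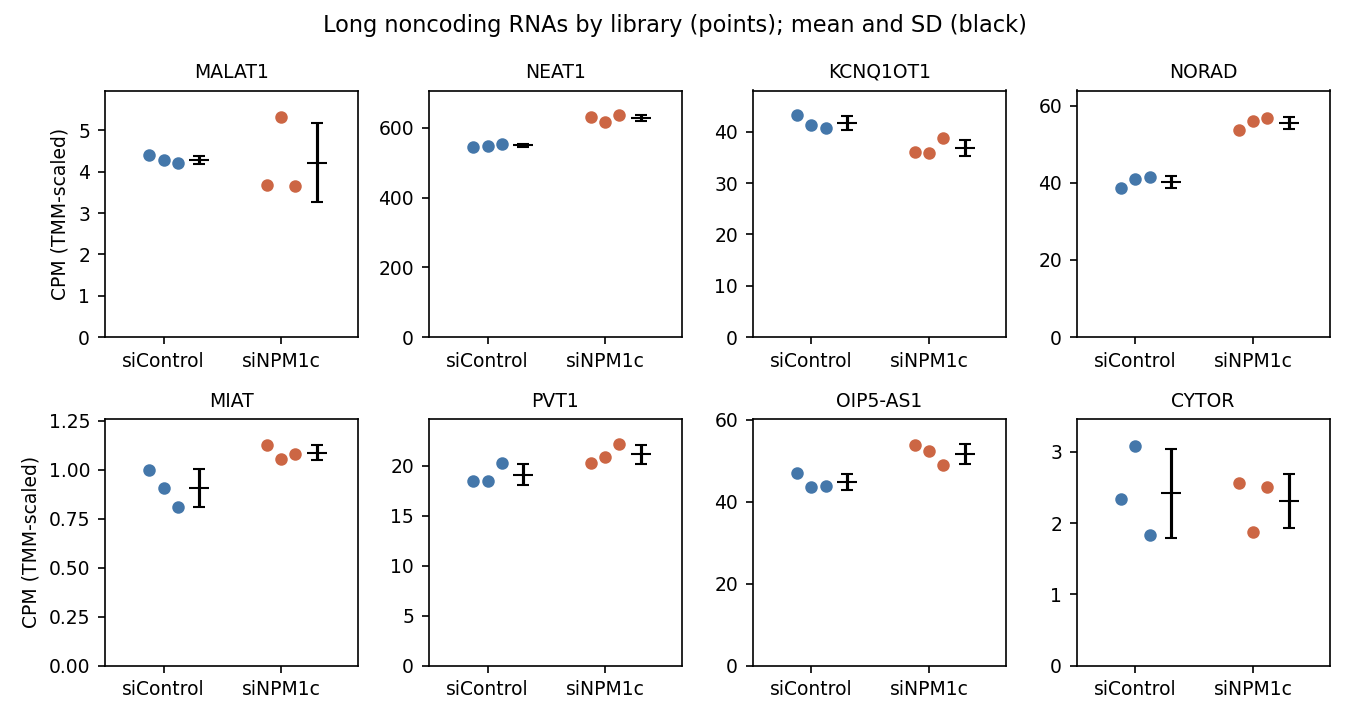
CPM (TMM-scaled, y axis from 0, own range for each panel) of each RNA in the 3 siControl (blue) and 3 siNPM1c (orange) libraries; black marks give the mean and SD. The groups are apart for NEAT1, NORAD, OIP5-AS1 and KCNQ1OT1 and mixed for MALAT1 and CYTOR; with library sizes alone no RNA has a log2 fold change above 0.

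In siControl the RNAs spanned a wide range of levels. Per kilobase of exonic length, NEAT1 stood highest at 24.1 ± 0.174 CPM per kb (SD, n = 3), followed by NORAD at 7.54 ± 0.286. OIP5-AS1, at 3.53 ± 0.149, and PVT1, at 3.47 ± 0.192, overlapped. MALAT1 had 0.486 ± 0.011 and KCNQ1OT1 0.456 ± 0.0147, values that were close but did not overlap. CYTOR followed at 0.136 ± 0.0355 and MIAT at 0.0765 ± 0.0082. The value of CYTOR depends on the length used. Its GENCODE exons cover 17693 bases, of which only 4874 lie within its RefSeq span, and a shorter length would raise it. Its place below MALAT1 and KCNQ1OT1 per kilobase is therefore uncertain. Among the 802 tested lncRNA and antisense RNA genes, ranked by CPM without a length correction, NEAT1 was 1st, OIP5-AS1 12th, NORAD 13th, KCNQ1OT1 16th and PVT1 31st. MALAT1 ranked 171st, CYTOR 300th and MIAT 577th, so these 3 were not among the abundant lncRNAs of this table. The place of KCNQ1OT1 goes with its length of 91667 bases: per kilobase, among 470 of these genes with a length, it ranked 336th, below MALAT1 at 317th. MALAT1 is among the most abundant nuclear RNAs of most human cells, and its low count here is taken up below.

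NEAT1 had the highest CPM of the tested lncRNAs, and was 4th of 470 per kilobase. It lies at chr11:65422798-65445540 (GRCh38). NEAT1 had 9825, 15151 and 10290 counts in siControl and 8377, 12902 and 9440 in siNPM1c. At 546, 549 and 554 CPM in siControl against 630, 618 and 638 CPM in siNPM1c, all siNPM1c libraries lay above all siControl libraries. The means were 550 ± 3.96 and 629 ± 9.84 CPM (SD, n = 3), a log2 fold change of 0.19 ± 0.02 SE (1.14-fold, edgeR adjusted p = 1.24e-18), but -0.27 with library sizes alone. As a share of the counts outside rRNA and 7SL, a measure free of TMM, it was 0.202% ± 0.00156 and 0.216% ± 0.00397, again with no overlap. As a share of all counts it was 0.0646% and 0.0534%, in the other order. A short and a long NEAT1 transcript share their start, and only the long one builds paraspeckles. The gene count does not separate them.

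MALAT1 did not change beyond its spread. Its counts were 79, 118 and 78 in siControl and 49, 111 and 54 in siNPM1c. In CPM these were 4.39, 4.27 and 4.20 against 3.69, 5.32 and 3.65, so siNPM1c replicate 2 lay above and the other 2 siNPM1c libraries below every siControl library. The log2 fold change was 0.02 ± 0.15 SE (edgeR adjusted p = 0.941), and it was -0.22 without siNPM1c replicate 2, also not called. It was -0.45 and called lower with library sizes alone. Each library held 116 to 175 NEAT1 counts per MALAT1 count. The log2 ratio was 7.002 ± 0.0426 in siControl and 7.243 ± 0.331 in siNPM1c, a difference of 0.24 (exact two-sided permutation test, p = 0.4, where the smallest p for groups of 3 is 0.1).

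The MALAT1 count comes with an overlap in the annotation. Of the 8779 bases of MALAT1 (chr11:65497738-65506516), 7205 (82.1%) lie under its antisense gene TALAM1 (chr11:65499312-65507432), and 1574 do not. Whether the authors counted by strand, and what they did with reads that meet both genes, is not given in the sources used here. If every MALAT1 count came from the 1574 unshared bases, its density would be 31.1 to 74.97 counts per kb. TALAM1, with 44, 70 and 45 counts in siControl and 38, 70 and 46 in siNPM1c, would reach 41.5 to 76.4 counts per kb over its own 916 unshared bases. NEAT1 had 368 to 666 counts per kb of its span, 8.04 to 12.1 times the unshared density of MALAT1 in the same library, and NORAD had 130 to 219. The unshared density of MALAT1 was thus under that of NEAT1 and NORAD in all 6 libraries, and the part of the overlap in its count was not tested. TALAM1 did not pass the test either (0.34 ± 0.18, adjusted p = 0.127).

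**Figure D2:**
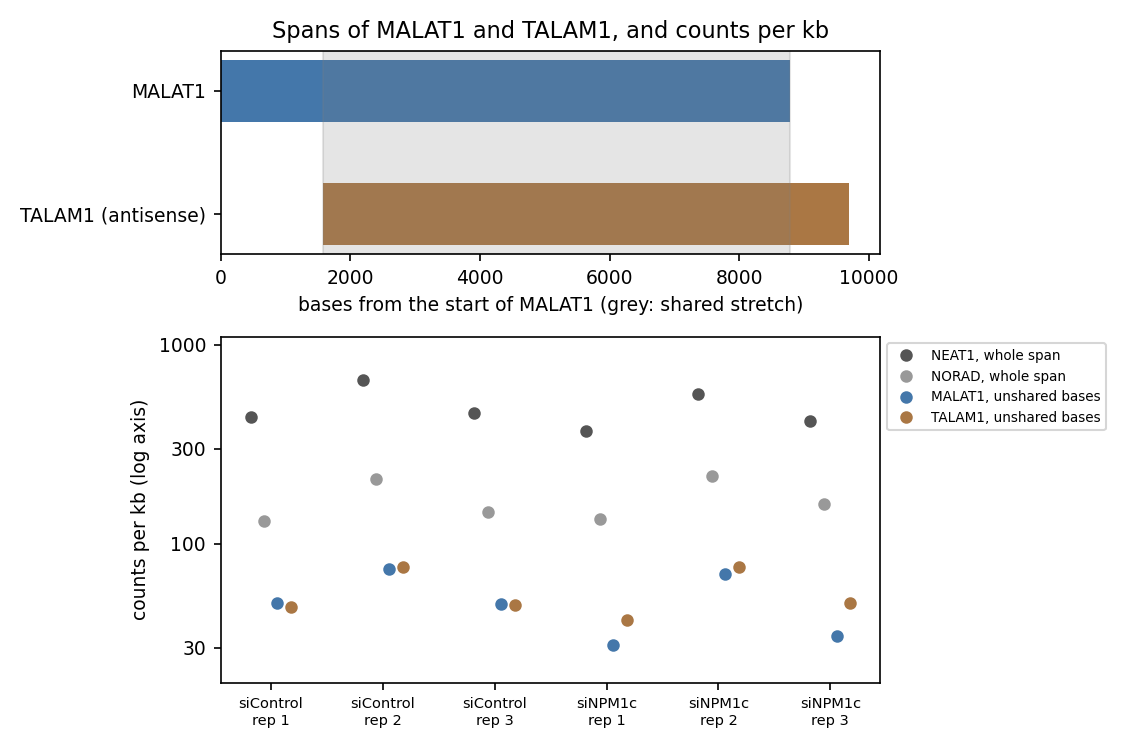
Top, spans of MALAT1 and TALAM1 in bases from the start of MALAT1, with the 7205 shared bases in grey; bottom, counts per kb (log axis) in each library for NEAT1 and NORAD over their whole spans and for MALAT1 and TALAM1 if all their counts came from their unshared bases. MALAT1 and TALAM1 lie between 31.1 and 76.4 counts per kb, under NORAD (130 to 219) and NEAT1 (368 to 666).

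MALAT1 and the long NEAT1 transcript share an unusual end, which is why their sequences are shown. Neither ends in an added poly(A) tail: RNase P cuts before a tRNA-like RNA, and a triple helix of 2 U-rich motifs and an A-rich tract protects the new 3′ end. Libraries from total RNA need not depend on a tail, but the selection step of these is not given in the sources used here. The last 100 bases before the cut follow, from GENCODE transcripts (GRCh38, plus strand, written as DNA). Capitals mark the 3 runs of at least 8 bases that the ends have in common, in the same order. The U-rich motifs and the A-rich tract overlap these runs and can reach beyond them.
MALAT1, chr11:65506017-65506116: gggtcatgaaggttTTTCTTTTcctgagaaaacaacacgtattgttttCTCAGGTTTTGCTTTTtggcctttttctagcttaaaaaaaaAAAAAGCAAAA
NEAT1, chr11:65445441-65445540: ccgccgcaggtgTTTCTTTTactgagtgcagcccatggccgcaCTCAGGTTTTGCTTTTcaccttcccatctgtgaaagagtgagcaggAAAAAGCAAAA
The RNAs released by that cut read as follows in GENCODE, with 57 bases for MALAT1 (58 in the RefSeq span) and 58 for NEAT1.
MALAT1 tRNA-like RNA, chr11:65506117-65506173: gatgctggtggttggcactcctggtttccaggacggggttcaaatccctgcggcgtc
NEAT1 tRNA-like RNA, chr11:65445541-65445598: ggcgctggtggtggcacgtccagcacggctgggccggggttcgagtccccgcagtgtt
All 3 runs stand in the last 100 bases of 0 of the longest transcripts of 23047 other genes of the table. The runs were picked because these 2 ends share them, so their rarity elsewhere is no test. The other genes were read at their annotated transcript ends, and MALAT1 and NEAT1 up to the cut. Taken alone, the run of 8 bases was in 1.82% of them, that of 16 in 0% and that of 11 in 0.0521%. The table's row for the MALAT1 product, mascRNA (MASCRNA), had 0 counts in all 6 libraries. MASCRNA overlaps the spans of both MALAT1 and TALAM1, so this 0 may depend on how shared reads were handled. It does not show that the RNA was absent.

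The genes for proteins of these nuclear bodies were read against the 21.3% of all genes called higher and 21.4% called lower. DESeq2 called fewer genes in all, 29.6% in either direction against 42.7%, and its list counts stand against that share. From a list of 21 paraspeckle proteins, all tested, 4 (19.05%) were higher and 8 (38.1%) lower (DESeq2 called 2 and 6), with a median log2 fold change of -0.00 (-0.47 with library sizes alone). HNRNPK, which promotes the long NEAT1 form, fell by 0.44 ± 0.06, RBMX by 0.57 ± 0.08, RBM14, which joins paraspeckle subunits, by 0.39 ± 0.06, and MATR3 by 0.38 ± 0.06. After the GC correction HNRNPK was at -0.27, RBMX at -0.47, RBM14 at -0.48 and MATR3 at -0.20, and all 4 were still called. The core paraspeckle proteins were not called in the main test: NONO was at -0.09, SFPQ at 0.04 and PSPC1 at 0.04. After the GC correction SFPQ was called higher, at 0.20 (edgeR adjusted p = 1.26e-05), while NONO, at -0.07, and PSPC1, at 0.10, were not called. With library sizes alone they were called lower, NONO at -0.56, SFPQ at -0.43 and PSPC1 at -0.43. NONO, SFPQ and PSPC1 lie outside the rule for named genes and were chosen after their values were seen. Of 19 tested genes for speckle proteins and MALAT1 processing, 1 (5.26%) was higher and 5 (26.3%) lower (DESeq2 called 1 and 2), the latter near the share of all genes, and the median was -0.14. RPPH1, the RNA of RNase P, rose from 8447 to 10724 CPM (0.34 ± 0.02), but was at -0.12 with library sizes alone. The splicing factors SRSF1 and SRSF3 fell by 0.37 ± 0.06 and 0.30 ± 0.05, and RNPS1 by 0.14 ± 0.05, a call that DESeq2 did not make.

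Within 100 kb of NEAT1 and MALAT1, EHBP1L1 (0.52 ± 0.04), FAUP4 (0.51 ± 0.19), FRMD8 (0.36 ± 0.05) and MAP3K11 (0.32 ± 0.04) were higher. With library sizes alone MAP3K11 was called lower, at -0.15. FRMD8, at -0.11, and EHBP1L1 and FAUP4, at 0.05 and 0.04, were not called on that scale. The FAUP4 call was lost under 6 of the 18 alternatives in which it was tested, DESeq2 among them. LTBP3, which lies between MALAT1 and EHBP1L1, had -0.14 ± 0.10 and was not called. Over the 8 RNAs, 27 neighbours within 100 kb were tested, counted once each, of which 7 were higher and 3 lower, against 21.3% and 21.4% of all genes, with a median of 0.02. That count includes NEAT1 and MALAT1, which are neighbours of each other.

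KCNQ1OT1 was the 1 RNA of the 8 called lower. It covers chr11:2608328-2699994, an unspliced stretch of 91667 bases that lies 100% within the span of KCNQ1, on the opposite strand. Its counts were 778, 1142 and 755 in siControl and 480, 747 and 573 in siNPM1c. At 43.3, 41.4 and 40.7 CPM against 36.1, 35.8 and 38.7 CPM, all siNPM1c libraries lay below all siControl libraries. The means were 41.8 ± 1.35 and 36.9 ± 1.598 CPM, and the level fell by 0.18 ± 0.05 SE on the log2 scale (1.13-fold, edgeR adjusted p = 0.0016). This call was lost when the dependence of the counts on GC content was removed from each library, which left -0.06 (adjusted p = 0.394). The RNA has 43.7% GC, and the 500 tested genes nearest to it in GC content had a median of -0.13. KCNQ1, the potassium channel gene around it, went from 7.54 to 6.19 CPM (-0.28 ± 0.12, adjusted p = 0.0463), a call lost under 10 of 19 alternatives. Reads from KCNQ1 introns and from KCNQ1OT1 cannot be told apart without strand.

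Of 10 tested genes of the imprinted domain around KCNQ1OT1, 5 were higher and 2 lower, against 21.3% and 21.4% of all genes, so the lower count was near the background. The median was 0.21, but -0.26 with library sizes alone. DESeq2 called 4 higher and 0 lower, against 29.6% of all genes in either direction. ASCL2, a transcription factor gene of the domain, rose from 0.387 to 1.14 CPM (1.49 ± 0.36), and remained higher at 1.02 with library sizes alone. Its counts were few: its siControl mean lay below the 0.905 CPM of MIAT, which had 15 to 25 counts per library. OSBPL5, for an oxysterol-binding protein, rose by 0.38 ± 0.03, the tetraspanin gene CD81 by 0.21 ± 0.03 and TSSC4 by 0.27 ± 0.08. With library sizes alone OSBPL5 was at -0.09, CD81 at -0.26 and TSSC4 at -0.20, and TSSC4 was not called after the GC correction. CDKN1C, the domain's cell-cycle inhibitor and a known target of the silencing, had 0.58 ± 0.32 and was not called; it was named after its value was seen.

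MIAT was nearly absent, with 18, 25 and 15 counts in siControl and 15, 22 and 16 in siNPM1c. It lies at chr22:26646429-26676478, and 3636 of its bases lie under MIATNB. In CPM these were 1.00, 0.906 and 0.808 against 1.13, 1.05 and 1.08 in siNPM1c, which did not overlap. As shares of the counts outside rRNA and 7SL the groups overlapped. The log2 fold change of 0.26 ± 0.31 SE was not called (edgeR adjusted p = 0.522), and it was -0.21 with library sizes alone. At 15 to 25 counts per library the SE exceeded the difference itself. The size of change that could be detected at such counts was not tested. Of 7 tested genes listed as partners of MIAT and OIP5-AS1, edgeR and DESeq2 each called 0 higher and 3 lower. Of all genes, edgeR called 21.3% higher and 21.4% lower, and DESeq2 called 29.6% in either direction. Of the 7, 0 were higher at an unadjusted p under 0.05. CELF2, which binds MIAT and steers splicing, fell by 0.34 ± 0.05, ELAVL1 (HuR), a stabiliser of mRNAs bound by OIP5-AS1, by 0.36 ± 0.07, and the splicing factor SF1 by 0.18 ± 0.04. After the GC correction they were at -0.31, -0.36 and -0.25, and all 3 were still called. Near MIAT, the sulfotransferase gene TPST2 was higher (0.45 ± 0.06; -0.02 with library sizes alone).

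PVT1, on chromosome 8 beside MYC, had 333, 509 and 377 counts in siControl and 270, 435 and 329 in siNPM1c. In CPM these were 18.5, 18.4 and 20.3 against 20.3, 20.8 and 22.2. The groups touched: the highest siControl library, at 20.30 CPM, was just under the lowest siNPM1c library, at 20.31. As shares of the counts outside rRNA and 7SL they overlapped. The log2 fold change of 0.15 ± 0.07 SE was not called (edgeR adjusted p = 0.0693). It was called without siControl replicate 3 (adjusted p = 0.0342) and when scaled on protein-coding genes only (0.0451), and it was -0.32 with library sizes alone. MYC, the oncogene whose gene lies 51.6 kb away, went from 42.6 to 38.9 CPM (-0.13 ± 0.05, adjusted p = 0.0271), a call lost under 6 of 19 alternatives, DESeq2 among them. The opposite signs of PVT1 and MYC were not tested against each other.

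NORAD showed the clearest increase. It lies at chr20:36045618-36050960, in a span that no other gene of the table overlaps. Counts of NORAD were 693, 1128 and 769 in siControl and 713, 1169 and 842 in siNPM1c. At 38.5, 40.9 and 41.4 CPM in siControl against 53.6, 56.0 and 56.9 CPM in siNPM1c, the groups were far apart. The means were 40.3 ± 1.53 and 55.5 ± 1.67 CPM (SD, n = 3), a log2 fold change of 0.46 ± 0.05 SE (1.38-fold, edgeR adjusted p = 1.68e-18). It was the only 1 of the 8 that was called in a test against a 1.2-fold change (glmTreat, adjusted p = 2.73e-05). With library sizes alone it was -0.01 (adjusted p = 0.915), where the typical gene was at -0.48. After the GC correction it was 0.64, and the 500 tested genes nearest to its 41.6% GC had a median of -0.16.

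Its share of the counts outside rRNA and 7SL was 0.0148% ± 0.000578 and 0.0191% ± 0.000622, with no overlap (exact two-sided permutation test, p = 0.1, the smallest possible, and 0.2 adjusted over 16 shares). Within a library, ratios between the RNAs depend on no scaling. There were 0.891, 0.988 and 1.02 NORAD counts per KCNQ1OT1 count in siControl and 1.49, 1.56 and 1.47 in siNPM1c, a log2 difference of 0.64 (exact p = 0.1). The log2 ratio of NORAD to NEAT1 differed by 0.27 and that of KCNQ1OT1 to NEAT1 by -0.37 (exact p = 0.1 each), whereas OIP5-AS1 to NEAT1 differed by 0.01 (exact p = 1). These 4 ratios were chosen after the values were seen, and over the 6 ratios computed the Benjamini-Hochberg adjusted p of the 3 that differed was 0.2.

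NORAD binds Pumilio proteins through repeats of a short motif, and these sites are shown because they set it apart from the other 7 in sequence. TGTANATA, where N is any base, was searched on the transcript's strand in the longest GENCODE transcript of each gene. It occurs 15 times in the 5339 bases of NORAD. The windows below hold 8 of these sites, in capitals, with 10 bases on each side, positions counted from the 5′ end of the transcript and letters written as DNA.
NORAD 751-778: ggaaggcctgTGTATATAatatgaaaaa
NORAD 1231-1258: aatcacatttTGTAAATAcctttttgtt
NORAD 1432-1468: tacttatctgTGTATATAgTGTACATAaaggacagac
NORAD 2629-2665: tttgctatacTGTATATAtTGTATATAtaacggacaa
NORAD 3265-3301: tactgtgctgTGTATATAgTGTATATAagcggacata
In 3 of these windows a pair of sites stands 1 base apart. NEAT1 has 6 matches in 22743 bases, KCNQ1OT1 9 in 91667 and OIP5-AS1 1 in 8829, and the other 4 RNAs have 0. Among the longest transcripts of 2797 tested genes within 20% of NORAD's length, 42.7% hold at least 1 match, the median is 0 and the highest is 16, and 1 transcript has at least 15. A match is a run of letters and was not measured as binding here.

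**Figure D3:**
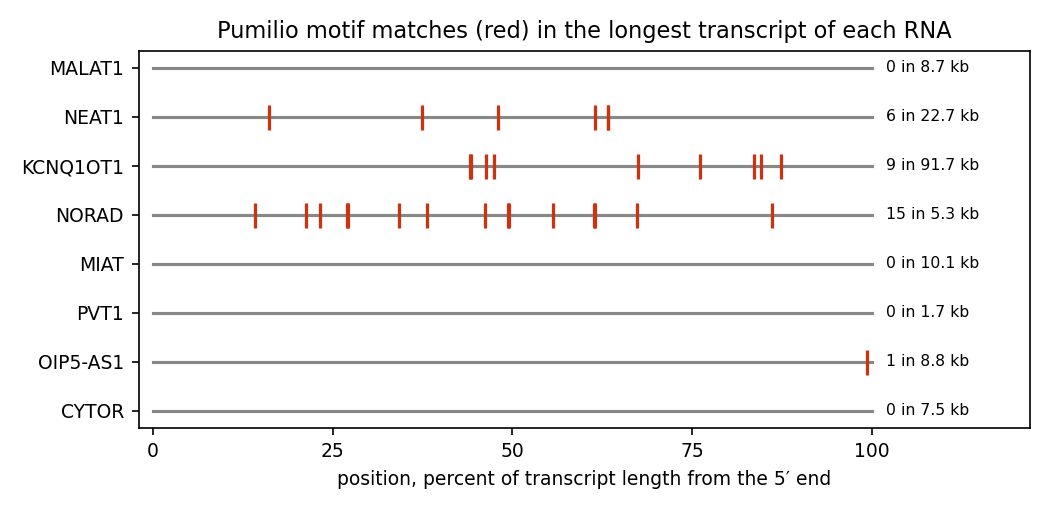
Matches to the Pumilio motif (red ticks) along the longest transcript of each of the 8 RNAs, as percent of its length from the 5′ end; the number of matches and the transcript length in kb stand on the right. NORAD holds 15, KCNQ1OT1 9, NEAT1 6 and OIP5-AS1 1, and the other 4 hold 0.

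PUM2, which encodes a Pumilio protein, went the other way from NORAD. It fell from 29.1 to 19.8 CPM (-0.56 ± 0.06), and was at -0.43 after the GC correction. Of 8 tested NORAD partners, 1 was higher and 4 lower, against 21.3% and 21.4% of all genes, with a median of -0.20. RBMX, which NORAD is reported to bind in the nucleus, fell by 0.57 ± 0.08. The spliceosome gene CDC5L fell by 0.42 ± 0.11, a call lost after the GC correction (adjusted p = 0.197). RALY, not among the 4 smallest p of that list, was the 1 higher (0.18 ± 0.06; -0.29 with library sizes alone), and its call was also lost after the GC correction (0.10, adjusted p = 0.136). Of the 3 tested neighbours of NORAD, SCAND1 was higher (0.31 ± 0.06; -0.16 with library sizes alone), and PHF20 (0.11 ± 0.08) and EPB41L1 (-0.14 ± 0.23) were not called.

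OIP5-AS1 was higher by about as much as NEAT1. It lies at chr15:41282697-41313338, and 4066 of its bases lie under OIP5, the gene it is named for. OIP5-AS1 had 844, 1203 and 812 counts in siControl and 714, 1093 and 725 in siNPM1c. At 46.9, 43.6 and 43.7 CPM against 53.7, 52.4 and 49.0 CPM, the siNPM1c libraries lay above the siControl libraries. The means were 44.7 ± 1.89 and 51.7 ± 2.44 CPM, a log2 fold change of 0.21 ± 0.05 SE (1.16-fold, edgeR adjusted p = 3.76e-05), but -0.26 with library sizes alone. Its share of the counts outside rRNA and 7SL overlapped between the groups (0.0165% ± 0.000676 and 0.0178% ± 0.000786, exact p = 0.2). OIP5, at 2.96 and 2.57 CPM, was not called (-0.23 ± 0.19). NUSAP1, a spindle gene 19.5 kb away, fell by 0.74 ± 0.13, the largest change among the neighbours of the 8 RNAs.

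CYTOR was low and scattered, with 42, 85 and 34 counts in siControl and 34, 39 and 37 in siNPM1c. In CPM these were 2.34, 3.08 and 1.83 against 2.56, 1.87 and 2.50, which overlapped. The log2 fold change was -0.14 ± 0.20 SE (edgeR adjusted p = 0.610). It was -0.60 and called lower with library sizes alone. It turned to 0.12 without siControl replicate 2 and to 0.03 without siNPM1c replicate 2, and was not called in either. CYTOR (chr2:87455427-87521518) has a near copy, MIR4435-2HG (chr2:111195866-111495161), so that short reads may fit both. The transcripts CYTOR-216 and MIR4435-2HG-222 align over 2254 bases at 99.2% identity, with 14 mismatches and 3 gaps, and 37 of 38 CYTOR transcripts match MIR4435-2HG over at least 100 bases. A stretch of 120 bases shows how few letters tell them apart, with the 2 mismatches in capitals.
CYTOR-216, 1242-1361: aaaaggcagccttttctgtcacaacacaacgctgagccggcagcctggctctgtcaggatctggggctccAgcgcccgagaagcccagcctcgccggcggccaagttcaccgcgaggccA
MIR4435-2HG-222, 1200-1319: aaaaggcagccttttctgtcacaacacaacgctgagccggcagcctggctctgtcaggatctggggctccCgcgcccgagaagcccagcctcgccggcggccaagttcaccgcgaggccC
MIR4435-2HG had 82, 160 and 88 counts in siControl and 67, 73 and 72 in siNPM1c and was not called (-0.23 ± 0.14, adjusted p = 0.194). The log2 ratio of CYTOR to MIR4435-2HG differed between the groups by 0.14 (exact p = 0.6). Reads that fit both genes make either count uncertain.

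Scaling moved all 8 RNAs together, by about as much as it moved the typical gene. The GC correction raised the RNAs of low GC content: MALAT1, at 39.3% GC, went from 0.02 to 0.24, NORAD from 0.46 to 0.64, NEAT1 from 0.19 to 0.25 and OIP5-AS1 from 0.21 to 0.28. PVT1, at 51.1% GC, went from 0.15 to 0.14 and MIAT, at 51.7% GC, from 0.26 to 0.24. GC content is the median over the transcripts of a gene. That gave 46.4% for OIP5-AS1, 47.1% for NEAT1 and 49.1% for CYTOR, whose longest transcripts have 38.4%, 44.1% and 41.9%. A correction with the longest transcripts was not run. A change of library factors shifts all genes alike and cannot change their order. After the GC correction NORAD was still above NEAT1 and OIP5-AS1, and these above KCNQ1OT1.

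**Figure D4:**
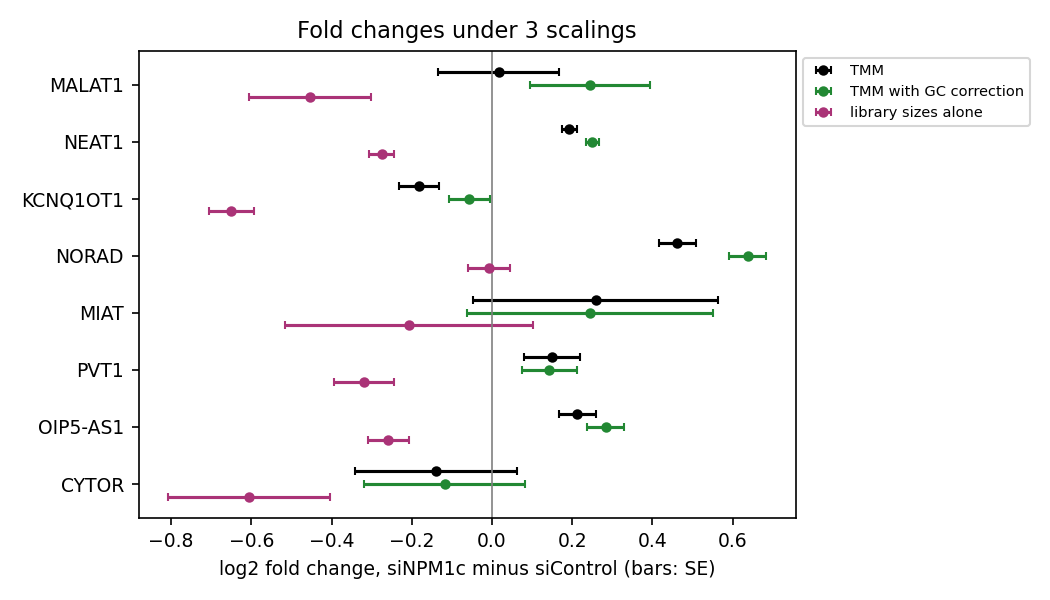
Log2 fold change with SE (x axis) of each RNA under TMM (black), TMM with a GC correction (green) and library sizes alone (purple). Under library sizes alone all 8 lie below 0, from -0.01 for NORAD to -0.65 for KCNQ1OT1; under TMM, NORAD is farthest to the right at 0.46.

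Set among other lncRNAs, the 8 were not extreme in log2 fold change. Of 794 other tested lncRNA and antisense RNA genes, 20.4% were higher and 9.95% lower, with a median of 0.11 (-0.36 with library sizes alone). For 11636 protein-coding genes the shares were 21.3% and 22.7%, and the median was -0.02. By log2 fold change NORAD ranked 182nd of 802, MIAT 299th, OIP5-AS1 333rd, NEAT1 348th, PVT1 379th, MALAT1 470th, CYTOR 554th and KCNQ1OT1 583rd. These ranks take no account of the SE, which among the 8 ran from 0.02 for NEAT1 to 0.31 for MIAT. From a list of 47 other well-known lncRNAs, 36 were tested, of which 10 were higher and 9 lower, near the shares of all genes. Their median was -0.07. DESeq2 called 6 higher and 4 lower, against 29.6% of all genes in either direction. LINC00926 was higher (0.46 ± 0.03), as was LINC-PINT (0.78 ± 0.15), a p53-linked RNA, while MIRLET7BHG, the host of let-7 microRNAs, was lower (-0.41 ± 0.04). With library sizes alone LINC00926 was at -0.00 and LINC-PINT stayed above 0, at 0.31.

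**Figure D5:**
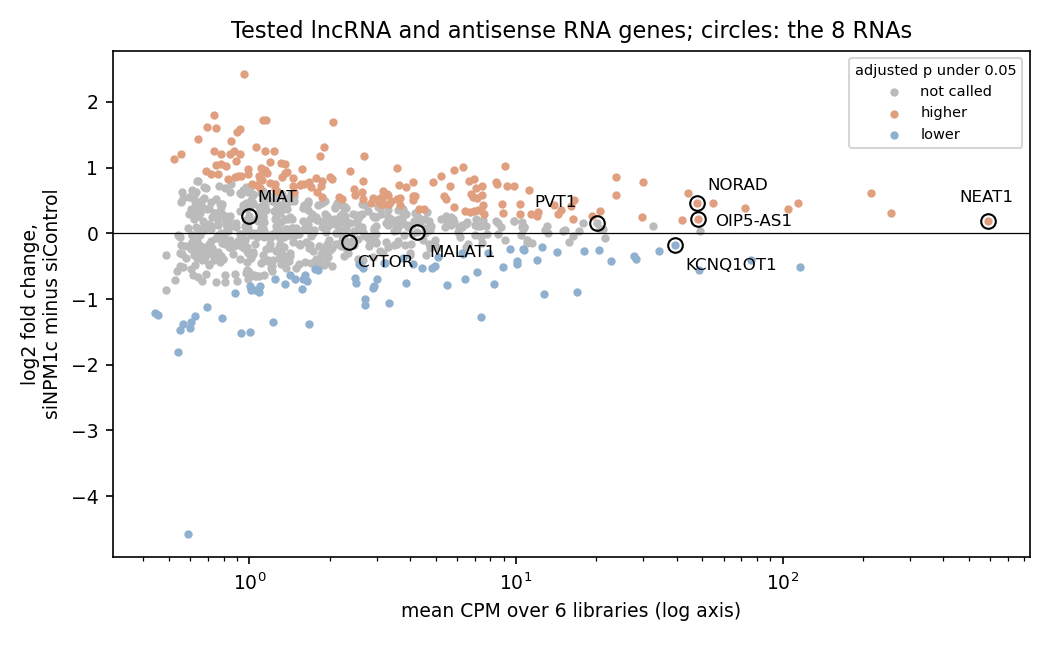
Mean CPM over 6 libraries (log x axis) and log2 fold change (y axis, siNPM1c minus siControl, TMM) of the 802 tested lncRNA and antisense RNA genes; colour gives the call at an adjusted p under 0.05, and circles mark the 8 RNAs. NEAT1 is farthest right, MALAT1, CYTOR and MIAT lie far to its left, and the 8 stay between -0.18 and 0.46; with library sizes alone they lie between -0.65 and -0.01.

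The genes whose profile over the 6 libraries lay closest to each RNA were found by the Euclidean distance between centred log2 CPM, among 7393 genes of at least 5 CPM. For NEAT1 these were SETD1A (0.0302), ACTN1 (0.0317) and PKMYT1 (0.0321). HBEGF (0.0269), PRXL2A (0.0619) and CD68 (0.0719) were closest to NORAD. LTBP4, SLC25A10 and CHCHD2 were closest to KCNQ1OT1, MAX, ZNF579 and ATP13A1 to OIP5-AS1, TRAP1, NOP53 and SIRPB2 to PVT1, and MIGA2, RING1 and IKBKG to MIAT. For the low and scattered RNAs the nearest genes were farther off, DENND6B at 0.140 for MALAT1 and MUC12 at 0.320 for CYTOR. With 2 groups of 3 libraries, such a distance mainly compares the group difference and the scatter of the same 6 libraries, and the median gene lay 0.374 from NEAT1 and 0.606 from NORAD.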

How the data were processed

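The deposited table holds raw read counts by Entrez gene for 6 total RNA libraries. In the submitters' processing notes stand the builds hg38 and mm10 and STAR 2.7.5a, cutadapt 2.6, DESeq2 1.34.0 and CASAVA 1.8, without roles. How reads were assigned to genes (tool, annotation, strand, shared reads) is not given in the sources used here. RefSeq tables (GRCh38.p14) gave symbols and spans for 28261 of 28307 genes. GENCODE 29 gave transcripts, exonic lengths and GC content, the median over a gene's transcripts (93.4% of tested genes). In R 4.3.3, edgeR 4.0.16 compared 3 against 3 libraries (filterByExpr, TMM, robust quasi-likelihood fit, two-sided). The SE is the log2 fold change over the square root of F. Simulated counts were used to test the code. Nothing says that libraries came from separate cultures, so p-values measure the spread between libraries. Libraries of a group differed by more than sampling noise (chi-square over degrees of freedom 1.46 to 2.36).

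The members and lists were chosen with earlier results of these data known. Named were the 8 RNAs, NPM1, at most 4 genes per list by smallest p, neighbours within 100 kb and the 3 nearest profiles. The 19 alternatives included library sizes without TMM, a lowess correction for GC content (span 0.3), DESeq2 1.42.0, limma 3.58.1 and each library left out. A few genes that this rule names are not reported here.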

Additional observations from a re-analysis of the deposited data

How the results depend on the processing

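With library sizes alone, which left the higher rRNA share of siNPM1c in the scale, 505 genes were higher and 9253 lower (main test 2756 and 2766), with 0 and 6 of the 8 RNAs and 3 and 78 list genes (main 21 and 30, each gene once). The log2 fold changes became -0.45 for MALAT1, -0.27 for NEAT1, -0.0063 for NORAD, -0.21 for MIAT, -0.32 for PVT1 and -0.26 for OIP5-AS1. DESeq2 called 1754 genes and 18 list genes lower. The GC correction left 0 of the RNAs lower. Against a 1.2-fold change, glmTreat called 1209 genes higher and 1113 lower, 1 and 0 of the RNAs and 11 and 9 list genes. Without a filter beyond 1 count MALAT1 was at -0.0051. A filter of 5 CPM left MALAT1, MIAT and CYTOR untested. Leaving out 1 library at a time gave 2435 to 2675 genes higher and 2196 to 2579 lower. Without siNPM1c replicate 2, MALAT1 was at -0.22 and CYTOR at 0.03, and without siControl replicate 2 CYTOR was at 0.12. MALAT1 ran from -0.22 to 0.12 and CYTOR from -0.29 to 0.12, never called. NEAT1 stayed between 0.19 and 0.21, NORAD between 0.44 and 0.49, OIP5-AS1 between 0.19 and 0.25 and KCNQ1OT1 between -0.21 and -0.15 when any 1 library was left out, and all 4 were called each time. With the replicate number as a block, 2793 genes were higher and 2793 lower, with 3 and 1 of the RNAs and 21 and 31 list genes. Same-numbered libraries correlated at 0.019 to 0.038, each best with its own number, a hint from the data and not the design, so the numbers were not taken as pairs. Counts of 15 to 118 limited MIAT, CYTOR and MALAT1.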
